A study of Homo sapiens with 46 samples.

Results

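DLD-1, a cell line established from a human colorectal adenocarcinoma, was compared after 96 h and after 16 h in auxin. The cells were the untagged parental line, labelled wild type, and each time was represented by 4 libraries, so the comparison used 8 of the 46 libraries of the study. All members were chosen by their labelled line and time. Both groups had received 1 mM auxin from a stock in DMSO, and no library from before auxin (0 h) entered the contrast. It therefore follows what changed between an early and a late time in the same compound. The 4 parental libraries at 0 h are given below as levels only. Per the labels' protocols, a replicate was 1 well of a 6-well plate, so p-values measure the spread between wells. The labels do not say whether wells were timed to be harvested together, whether cells were split during 96 h, or what vehicle the 0 h wells received. Time in auxin and time in culture cannot be told apart here. The other libraries were from 3 DLD-1 lines each with a degron fused to the N-terminus of an endogenous lamin, either Lamin A/C or Lamin B1 or Lamin B2. They received the same auxin for 0, 16 or 96 h, and are used below to show the same genes in other samples. The labels do not state whether each line was 1 clone.

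Auxin is a plant hormone. In engineered animal cells it brings a degron-tagged protein to a ubiquitin ligase through a plant receptor, and the protein is then degraded by the proteasome. Untagged cells have no such target, and they serve as the control for responses to the compound itself. Auxin is an indole, and some indoles bind the aryl hydrocarbon receptor, a transcription factor that induces the xenobiotic-oxidising enzymes CYP1A1 and CYP1B1.

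The 8 libraries held from 5603919 to 37309421 counts (median 10593543.5), and a gene with no count could still be at up to 3 counts. This is 0.535 CPM (counts per 1000000) in the shallowest library and 0.0804 in the deepest. These limits and the marker levels below in this paragraph are scaled by library total, and all later CPM values by TMM. Such limits cover counting error only. All 12 pairs of replicates differed by more than sampling noise, with a lowest chi-square per degree of freedom of 4.14. Of 12 markers of colon epithelium, 11 could be tested, and 0 of these were called. Their summed level was 7285 to 8992 CPM at 16 h and 7870 to 10503 at 96 h. CDX1 was at 0 in 7 of the 8 libraries, and VIL1, LGALS4 and GPA33 lay at or under 4.12 CPM. Summed markers of fibroblasts did not exceed 2.62 CPM, those of leukocytes 8.1 and those of endothelial cells 15.1, and 0 of any of these markers were called. Neuronal and glial markers summed to 63.7 to 67.3 CPM at 16 h and 70.8 to 78.5 at 96 h, and 0 were called.

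Few genes were called between the 2 times in the fit of all 46 libraries. Of 21484 genes tested with edgeR's quasi-likelihood test, 57 (0.265%) were called at an adjusted p under 0.05, 34 higher (0.158%) and 23 lower (0.107%) at 96 h. The median log2 fold change over all genes tested was 0.00281. At an unadjusted p under 0.05 there were 1613 genes (7.51%), 863 higher and 750 lower. Of the 34 genes called higher, 14 were transcripts of the mitochondrial genome and 4 were on the immediate early list. Of the 32 gene lists examined, none of the others had more than 1 call. Of the 57, 28 were at least 2-fold higher and 4 at least 2-fold lower, and in 51 the 4 libraries of one time did not overlap the 4 of the other. Over all genes tested, 1525 (7.1%) showed no overlap. The number of calls depended on the fit and on single libraries. It was 112 with DESeq2, 178 in the 8 parental libraries alone and 171 without libraries under 5000000 counts. With GC and length trends removed it was 202, and with limma voom with sample quality weights 567. The replicate number as a block gave 42 calls, and omission of mitochondrial transcripts 33. The number also fell when 1 library was left out. It was 31 without replicate 1 at 16 h, 30 without replicate 2 at 16 h, 36 without replicate 4 at 16 h, 31 without replicate 3 at 96 h and 35 without replicate 4 at 96 h. Across 19 alternative analyses 20 of the 57 genes kept the call in every one that tested them: S100P, LCN2, PRSS2, FOS, EGR1, EGR3, MT-ND1, MT-ATP6, MT-ND5 and ENSG00000261026.1 among those higher, and TNC, CADM1, ABAT, ACAA2, CCDC3, CRTAM, RASSF9, GRB10, IQGAP2 and NCAPD2P1 among those lower.

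**Figure D1:**
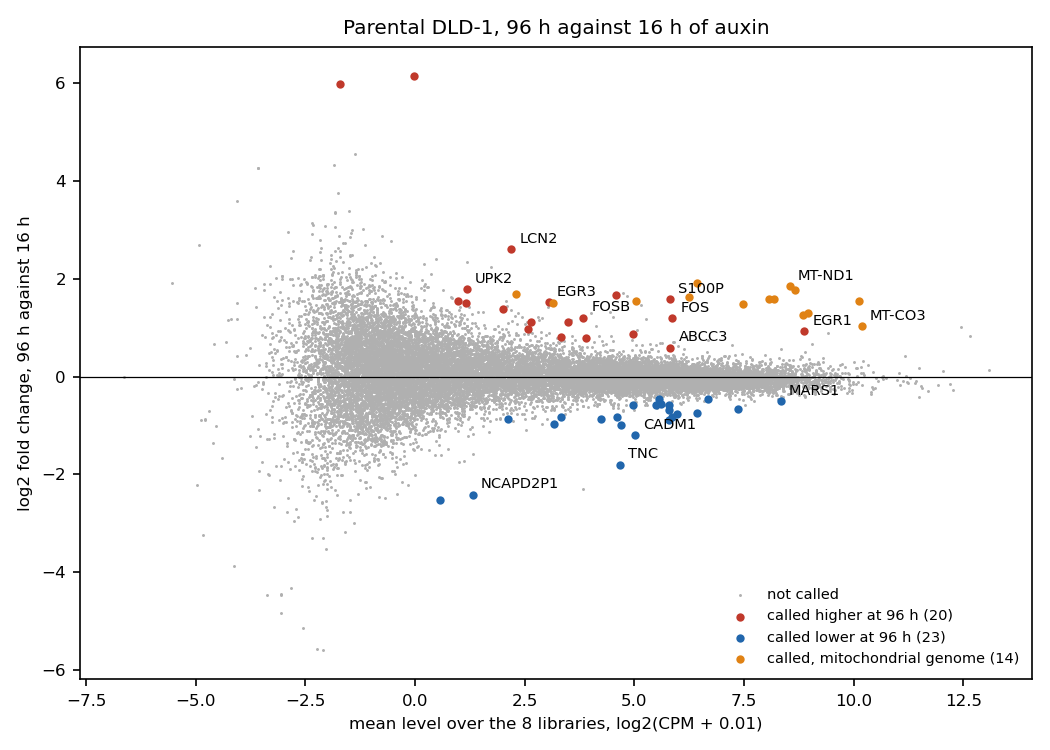
Log2 fold change of each gene between 96 h and 16 h of auxin in the parental line (vertical axis) against its mean level over the 8 libraries, log2(CPM + 0.01) (horizontal axis). Each point is a gene; grey points were not called, red points were called higher, blue points lower, and orange points are the 14 called genes of the mitochondrial genome, all higher. The 2 red points above 5 have 0 or 1 count at 16 h, so their fitted values are not bounds.

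Some of the immediate early genes, transcription factors that growth factor and stress signals switch on within minutes without new protein synthesis, rose between the 2 times. Of 23 listed and tested, 4 were called higher (17.4%, against 0.158% of all genes) and 0 lower, and 7 had an unadjusted p under 0.05, all of them higher. The median log2 fold change of the list was 0.299. With DESeq2, and with limma voom using sample quality weights, 7 members were called. Over all 21484 genes tested, these methods called 112 and 567. The list was chosen with earlier results of these data known, so its count is a description.

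FOS (ENSG00000170345.10, GRCh38 chromosome 14, 75278826 to 75282230, plus strand), whose protein pairs with JUN proteins to form the factor AP-1, stood at 36.2, 35.9, 33.2 and 36.3 CPM at 16 h and 78.0, 83.1, 77.0 and 85.7 CPM at 96 h. The 2 groups were far apart, and each was narrow. The log2 fold change was 1.19 ± 0.17 (standard error), a 2.29-fold rise with an edgeR adjusted p of 2.75e-05, and it was called in all 19 alternatives. At 0 h FOS had been at 24.4, 22.2, 25.6 and 33.1 CPM, under all 8 later libraries. EGR1 (ENSG00000120738.8, chromosome 5, 138465479 to 138469303, plus strand), a zinc finger factor of the same early response, had 310.3, 296, 362 and 329 CPM at 16 h and 534, 691, 620.1 and 611 CPM at 96 h. All 4 late libraries lay above the early ones. Its log2 fold change was 0.92 ± 0.16 (edgeR adjusted p 0.000801), again called in all 19 alternatives, and the 0 h libraries lay lower still, at 186 to 209 CPM.

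Because FOS and EGR1 moved together, the 250 bases before the RefSeq start of each gene (GRCh38.p14) are shown, 5′ to 3′ on the plus strand, with 2 motifs in capitals. These are the SRF CArG consensus, the binding motif of serum response factor, and TGACGT on either strand, the core letters of the cyclic AMP response element.
EGR1 chr5:138465229-138465478: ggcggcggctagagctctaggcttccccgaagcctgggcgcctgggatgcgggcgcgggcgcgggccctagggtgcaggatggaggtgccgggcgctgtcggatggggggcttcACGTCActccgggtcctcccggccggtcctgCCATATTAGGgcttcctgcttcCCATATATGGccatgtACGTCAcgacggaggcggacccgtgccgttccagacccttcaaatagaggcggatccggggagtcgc
FOS chr14:75278578-75278827: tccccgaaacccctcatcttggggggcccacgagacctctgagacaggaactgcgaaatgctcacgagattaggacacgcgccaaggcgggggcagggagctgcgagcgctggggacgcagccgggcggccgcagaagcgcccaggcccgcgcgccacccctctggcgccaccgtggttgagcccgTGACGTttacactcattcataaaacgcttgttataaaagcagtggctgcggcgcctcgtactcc
In EGR1 the CArG consensus matched at positions -105 and -83, counted from the start, and ACGTCA, the reverse complement of TGACGT, at -136 and -67. FOS had 1 match of TGACGT, at -64, and none of the CArG consensus in this window. Of the 4 called immediate early genes, 3 (EGR1, FOS and FOSB) held TGACGT on either strand and 1 the CArG consensus. Among all 35116 RefSeq windows of the same length the shares were 7.1% and 1.16%. Both motifs were chosen after the calls were known, a match is a description of letters, and binding was not measured.

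EGR3 (ENSG00000179388.9, chromosome 8, 22687659 to 22693480, minus strand), a relative of EGR1, stood at 5.73, 3.5, 5.1 and 2.8 CPM at 16 h and 7.6, 12.3, 13.0 and 16.1 CPM at 96 h. The groups did not overlap, and replicate 1 at 96 h was the lowest late library. The log2 fold change of 1.52 ± 0.26 (edgeR adjusted p 0.00075) was called in all 19 alternatives. FOSB (ENSG00000125740.14, chromosome 19, 45467995 to 45475179, plus strand), a second AP-1 subunit, moved from 7.46, 10.1, 8.8 and 7.94 to 14.3, 23.8, 19.1 and 22.6 CPM, a log2 fold change of 1.20 ± 0.27 (edgeR adjusted p 0.024). As with EGR3, replicate 1 was the lowest late library of FOSB, and the groups stayed apart. Its call was less stable: it was lost in 6 of the 8 fits that left out 1 library, those without replicate 1, 3 or 4 at 16 h or without replicate 2, 3 or 4 at 96 h, where the edgeR adjusted p reached 0.14.

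The other members with an unadjusted p under 0.05 were NR4A1, EGR2 and FOSL1. NR4A1, an orphan nuclear receptor, went from 36.6 ± 5.62 to 59.2 ± 15.0 CPM (SD, n = 4), with overlap between the times (log2 0.69 ± 0.17, edgeR adjusted p 0.0522). EGR2 had a log2 fold change of 1.60 ± 0.43 (edgeR adjusted p 0.122) from 0.915 ± 0.292 to 2.65 ± 1.03 CPM (SD, n = 4). FOSL1 had one of 0.50 ± 0.14 (edgeR adjusted p 0.157). An unnamed gene beside EGR3 was also called higher. ENSG00000261026.1 (chromosome 8, 22679013 to 22684009, minus strand) begins 3649 bases beyond the 3' end of EGR3 on the same strand, and had 1 count in all at 16 h and 27, 11, 7 and 34 counts at 96 h. Reads that run past the end of EGR3 and a separate transcript cannot be told apart in a table of counts per gene.

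**Figure D2:**
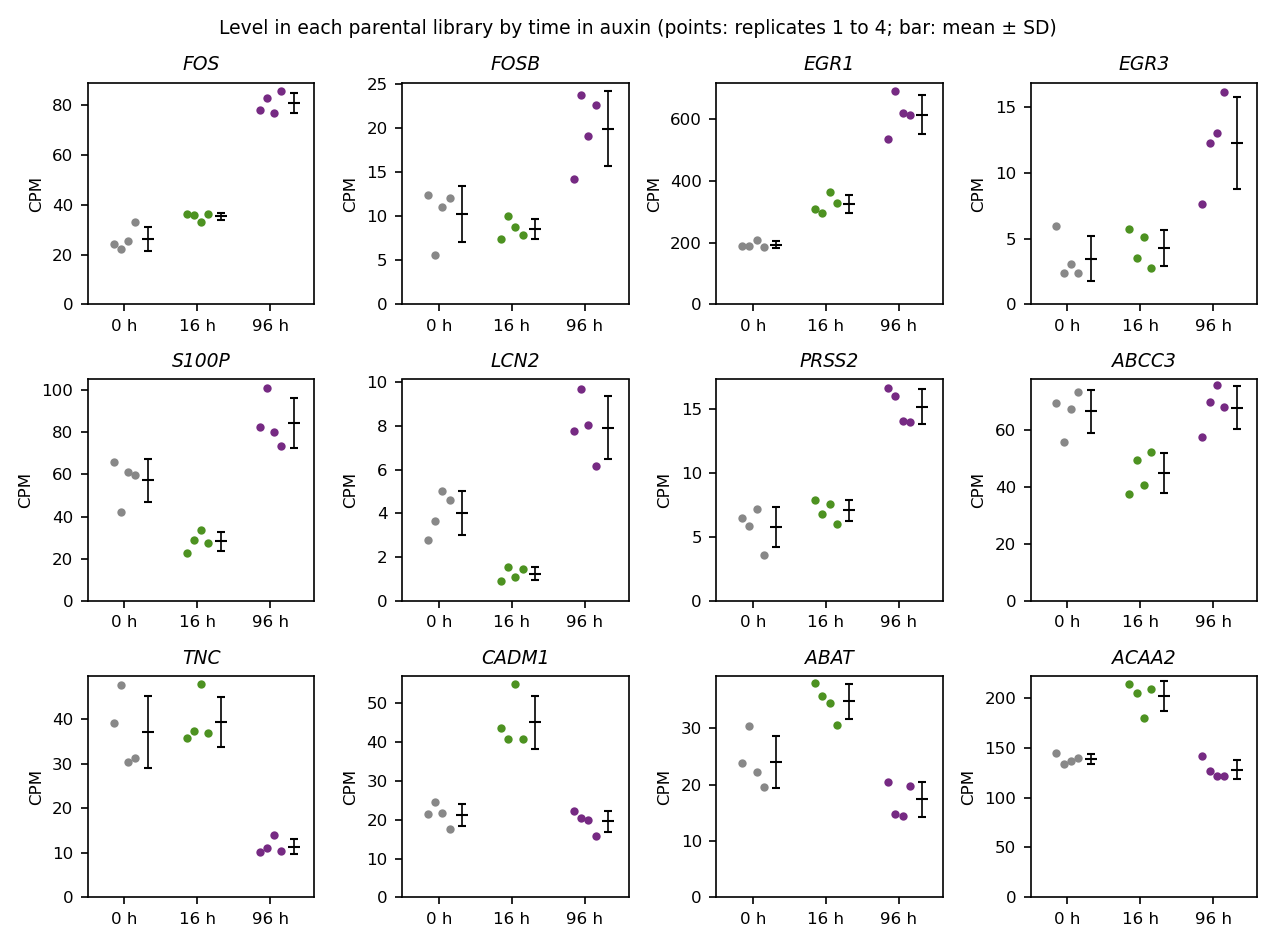
Level in CPM (vertical axes, from 0) of 12 genes called between 96 h and 16 h, in each parental library at 0 h, 16 h and 96 h of auxin; points are the 4 replicates in order, and the bar beside them is the mean ± SD. In each panel the 16 h and 96 h points do not overlap; FOS and EGR1 step up at both times, S100P and LCN2 are lowest at 16 h, and CADM1 and ACAA2 are highest at 16 h.

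Among the other genes called higher, LCN2 (ENSG00000148346.12, chromosome 9, 128149071 to 128153453, plus strand) encodes lipocalin 2, a secreted protein that binds bacterial siderophores and is induced in inflamed epithelium. It stood at 0.91, 1.53, 1.08 and 1.47 CPM at 16 h and 7.76, 9.67, 8.03 and 6.16 CPM at 96 h. Every late library was several times above every early one, with a log2 fold change of 2.61 ± 0.34 (6.1-fold, edgeR adjusted p 6.1e-06). At 0 h LCN2 had been between these levels, at 2.8, 3.63, 5.02 and 4.59 CPM. It was the 1 called gene among 18 tested targets of NF-kB and epithelial cytokines, where 3 had an unadjusted p under 0.05, all higher. The others were CXCL16 (log2 0.66 ± 0.18, edgeR adjusted p 0.123) and TNFAIP3 (log2 0.61 ± 0.22, edgeR adjusted p 0.358).

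S100P (ENSG00000163993.7, chromosome 4, 6693878 to 6697170, plus strand), a small calcium-binding protein of epithelial tumours, had the smallest p-value of the comparison. Its level was 22.6, 29.0, 33.7 and 27.7 CPM at 16 h and 82.6, 101, 79.9 and 73.2 CPM at 96 h. The lowest late library exceeded the highest early one by a wide margin, and the log2 fold change was 1.58 ± 0.17 (edgeR adjusted p 2.31e-08). As with LCN2, the 0 h libraries lay between, at 42.3 to 65.7 CPM. UPK2 (ENSG00000110375.3, chromosome 11, 118925164 to 118958559, plus strand), an uroplakin of the apical membrane of urothelium, stood at 0.455, 1.67, 0.927 and 0.441 CPM at 16 h and 2.53, 2.59, 6.96 and 2.48 at 96 h. Replicate 3 at 96 h was far above the other late libraries, and the groups did not overlap. The log2 fold change was 1.79 ± 0.42 (edgeR adjusted p 0.0372), and the call was lost without replicate 1, 3 or 4 at 16 h or replicate 3 at 96 h (edgeR adjusted p up to 0.316). It was also lost in 3 other alternatives, with an edgeR adjusted p of 0.0763 in the 8 parental libraries alone. UPK2 overlaps BCL9L on the other strand, and whether the counting used strand is not given in the sources used here.

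PRSS2 (chromosome 7, 142760398 to 142774564, plus strand) and PRSS1 (chromosome 7, 142749468 to 142753072, plus strand) encode trypsinogens, the precursors of the digestive protease trypsin. PRSS2 stood at 7.92, 6.81, 7.57 and 6.03 CPM at 16 h and 16.7, 16.1, 14.1 and 14.0 CPM at 96 h, which is 1.10 ± 0.19 on the log2 scale (edgeR adjusted p 0.000992). All late libraries lay above the early ones, and PRSS2 was called in all 19 alternatives. PRSS1 had 0.91, 0.684, 0.618 and 2.06 CPM at 16 h and 3.35, 3.19, 3.03 and 1.84 CPM at 96 h, with replicate 4 at 16 h above replicate 4 at 96 h (log2 1.54 ± 0.37, edgeR adjusted p 0.0462). It kept its call in 2 of the 8 fits that left out 1 library, those without replicate 4 at 16 h or at 96 h (edgeR adjusted p up to 0.297 in the others), and lost it in 4 other alternatives. The 2 genes are close to identical in sequence, so the division of reads between them is uncertain.

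A further 7 nuclear genes with a symbol were called higher. Transporters that export drugs and conjugates from cells were represented by ABCG2 (chromosome 4, 88090150 to 88231628, minus strand), with 10.4 to 11.9 CPM at 16 h and 13.9 to 21.1 at 96 h (log2 0.78 ± 0.18, edgeR adjusted p 0.0385), and by ABCC3 (chromosome 17, 50634777 to 50692253, plus strand), with 37.7 to 52.2 and 57.7 to 75.8 CPM (log2 0.59 ± 0.13, edgeR adjusted p 0.0197). ABCC3 was the 1 call among 18 tested NRF2 targets, and its 96 h libraries overlapped those at 0 h (55.9 to 73.5 CPM). DNAJB9 (chromosome 7, 108569867 to 108574850, plus strand), a cochaperone of the endoplasmic reticulum, was the 1 call among 16 chaperones of the unfolded protein response, with 16.5 to 25.1 CPM at 16 h and 31.7 to 47.2 at 96 h (log2 0.87 ± 0.19, edgeR adjusted p 0.0212). NLRC5 (chromosome 16, 56989485 to 57083531, plus strand), the transactivator of MHC class I genes, had 6.92 to 7.8 CPM at 16 h and 11.3 to 14.8 CPM at 96 h (log2 0.80 ± 0.17, edgeR adjusted p 0.0167). TIMP3 (chromosome 22, 32801705 to 32863041, plus strand), an inhibitor of metalloproteinases, had 3.46 to 4.56 CPM at 16 h and 5.15 to 9.18 CPM at 96 h (log2 0.96 ± 0.22, edgeR adjusted p 0.037). ADAMTSL4 (chromosome 1, 150549369 to 150560937, plus strand), a secreted matrix protein, had a log2 fold change of 1.50 ± 0.35 (edgeR adjusted p 0.0333), with 0.728 to 1.7 CPM at 16 h and 3.12 to 3.49 CPM at 96 h. The noncoding SAP30L-AS1 (chromosome 5, 154325568 to 154445850, minus strand) had one of 1.12 ± 0.24 (edgeR adjusted p 0.018), and it overlaps GALNT10 on the other strand. In each of these 7 genes the 2 groups did not overlap. Each also lost its call in 4 to 7 of the 8 fits that left out 1 library, with edgeR adjusted p up to 0.221 for ADAMTSL4, the highest of the 7. The fits that kept the calls were those without replicate 4 at 96 h for ABCG2; replicate 2 or 4 at 16 h or replicate 1 at 96 h for ABCC3; replicate 1 at 16 h or replicate 2 or 3 at 96 h for DNAJB9; replicate 3 or 4 at 16 h or replicate 1 or 3 at 96 h for NLRC5; replicate 4 at either time for TIMP3; replicate 3 at 16 h for ADAMTSL4; and replicate 1 or 2 at either time for SAP30L-AS1. Among the other alternatives ABCG2 lost its call in 3, ABCC3 and TIMP3 in 2, and NLRC5, ADAMTSL4 and SAP30L-AS1 in 1, with edgeR adjusted p up to 0.232 for ABCC3.

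Transcripts of the mitochondrial genome, which encodes 13 subunits of the respiratory chain and ATP synthase with the ribosomal and transfer RNAs needed to translate them, formed the largest group of calls. Of 15 listed mRNAs and rRNAs, 12 were called higher (80%, against 0.158% of all genes) and 0 lower, with a median log2 fold change of 1.53 over the list. In 8 of the 15 the groups did not overlap, all higher, against 1525 (7.1%) of all genes tested, 646 of them higher. MT-ND1 (chromosome M, 3307 to 4262, plus strand), a core subunit of complex I, stood at 110.2, 174, 199.7 and 163 CPM at 16 h and 273, 617, 792 and 655 CPM at 96 h. Replicate 1 was the lowest at both times, and its 96 h level still exceeded every 16 h library. The log2 fold change was 1.85 ± 0.30 (edgeR adjusted p 0.00036). MT-ND6 (chromosome M, 14149 to 14673, minus strand), the one mRNA of the light strand, had 24.3, 39.3, 48.8 and 32.4 CPM at 16 h and 62.4, 167, 180.1 and 137 CPM at 96 h, a log2 fold change of 1.92 ± 0.37 (edgeR adjusted p 0.00451). MT-ATP6 (chromosome M, 8527 to 9207, plus strand), a subunit of ATP synthase, had 94.4, 139, 166 and 139 and 173, 409.7, 568 and 470.3 CPM (log2 1.59 ± 0.28, edgeR adjusted p 0.00117). In both genes the groups were apart, with replicate 1 the lowest late library.

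The other subunits of complex I were also called higher. MT-ND5 (chromosome M, 12337 to 14148, plus strand) had a log2 fold change of 1.77 ± 0.30 (edgeR adjusted p 0.00075), MT-ND3 (chromosome M, 10059 to 10404, plus strand) one of 1.63 ± 0.38 (edgeR adjusted p 0.0385), MT-ND2 one of 1.58 ± 0.31, MT-ND4 one of 1.54 ± 0.30 and MT-ND4L one of 1.48 ± 0.28. In complexes III and IV MT-CYB had 1.29 ± 0.30, MT-CO2 1.26 ± 0.27 and MT-CO3 1.03 ± 0.25, while MT-CO1 had 1.02 ± 0.30 and missed the threshold (edgeR adjusted p 0.206). MT-ATP8 had 1.53 ± 0.35. Both ribosomal RNAs were spread too widely to compare. MT-RNR2 stood at 113, 71.4, 1302 and 429.8 CPM at 16 h and 34.6, 139, 2835 and 526 CPM at 96 h, in libraries from which ribosomal RNA had been depleted (log2 0.89 ± 1.27, edgeR adjusted p 0.947). For MT-RNR1 the edgeR adjusted p was 0.975. The transfer RNAs MT-TY (chromosome M, 5826 to 5891, minus strand; log2 1.69 ± 0.38, edgeR adjusted p 0.024) and MT-TP (chromosome M, 15956 to 16023, minus strand; log2 1.51 ± 0.32, edgeR adjusted p 0.018) were called higher as well. With each library's trend of counts with GC content and length removed, MT-TP took the other sign, at -0.0744 (edgeR adjusted p 0.971). The same correction ended the calls of MT-TY (edgeR adjusted p 1), MT-ATP8 (0.344), MT-ND3 (0.053) and MT-ND4L (0.0615), and left 9 of the 15 listed genes called. MTND2P28 (chromosome 1, 629640 to 630683, plus strand), a nuclear copy of MT-ND2, was called higher (log2 1.66 ± 0.34, edgeR adjusted p 0.00896). How reads that match both were counted is not given in the sources used here, so its level is uncertain.

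The mitochondrial levels varied between libraries of the same time. The share of all counts from the mitochondrial genome was 0.502% to 0.952% at 16 h and 0.751% to 2.53% at 96 h, and 0.972% to 1.49% at 0 h. For all 15 listed genes the mean at 16 h lay under the mean at 0 h, and the mean at 96 h above it. Replicate 1 was the lowest late library for all 15, and replicate 3 was the highest for 13. MT-ND1, MT-ND5 and MT-ATP6 kept their calls in all 18 alternatives that tested them, and MT-ND4L in all 8 fits that left out 1 library. MT-ND6 lost its call without replicate 1 at 16 h (edgeR adjusted p 0.0561), and MT-ND2 and MT-ND4 without replicate 1 at 16 h or replicate 3 at 96 h (edgeR adjusted p up to 0.0773 and 0.0657). MTND2P28, MT-CO2 and MT-CYB lost theirs without replicate 1 or 2 at 16 h or replicate 3 or 4 at 96 h, and MT-CYB also without replicate 4 at 16 h, with edgeR adjusted p up to 0.124, 0.164 and 0.252. MT-ATP8 was called without replicate 3 at 16 h or replicate 1 at 96 h, and MT-TP without these or replicate 4 at 96 h. MT-ND3, MT-CO3 and MT-TY kept the call in 1 such fit, that without replicate 1 at 96 h. MT-CO3 also lost its call with scaling by library size only, and MT-ND3 with RLE scaling and with DESeq2. The part that RNA quality or the recovery of mitochondrial RNA had in these differences was not tested. Among 32 nuclear-encoded respiratory chain genes, for comparison, 0 were called, 3 had an unadjusted p under 0.05, and the median log2 fold change was -0.0319. DESeq2 called 0 of them and limma voom 2, against 112 and 567 of all 21484 genes tested.

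**Figure D3:**
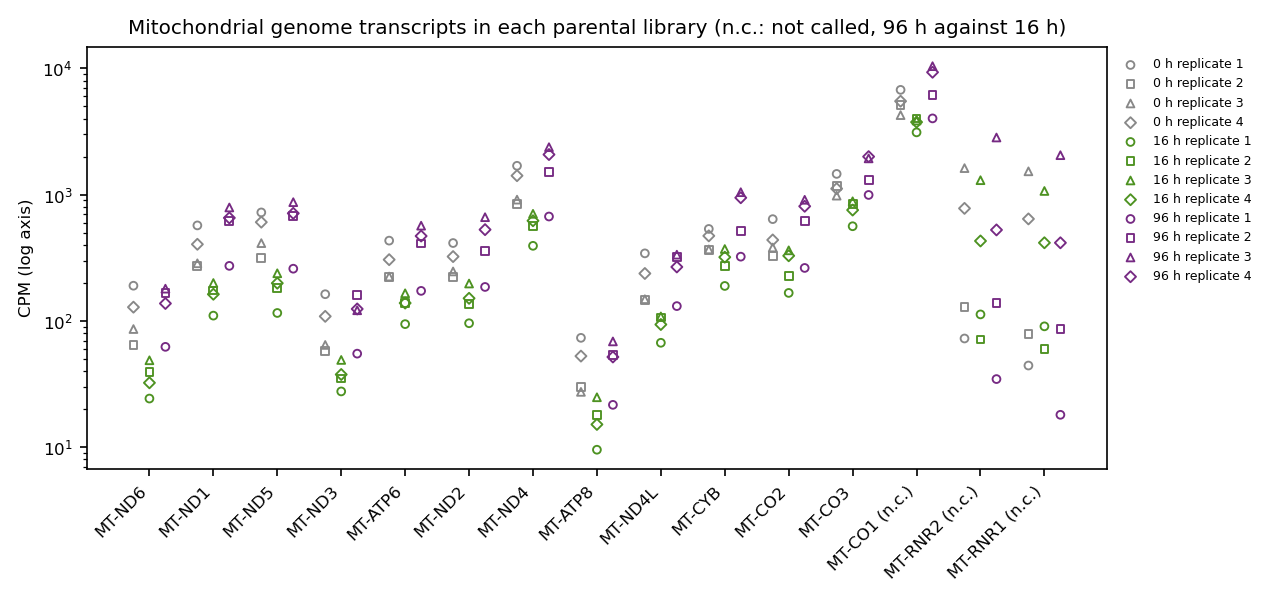
Level in CPM (vertical axis, logarithmic) of the 15 listed transcripts of the mitochondrial genome in each parental library; grey is 0 h, green 16 h and purple 96 h, and the marker shape gives the replicate. The purple markers of replicates 2 to 4 lie above the green ones for 13 of the 15 transcripts, replicate 1 at 96 h (purple circle) is the lowest late library throughout, and the 2 ribosomal RNAs are scattered at each time.

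Among the 23 genes called lower, TNC changed most of those above 10 CPM. TNC (ENSG00000041982.17, chromosome 9, 115019575 to 115118207, minus strand) encodes tenascin C, an extracellular matrix glycoprotein deposited during development, wound repair and in tumour stroma. It stood at 35.8, 37.2, 47.7 and 36.8 CPM at 16 h and 10.2, 11.2, 13.9 and 10.3 CPM at 96 h. The late libraries were all under the early ones, and replicate 3 was the highest at both times. The log2 fold change was -1.80 ± 0.26 (a 3.48-fold fall, edgeR adjusted p 5.88e-05), while the 0 h libraries, at 30.3 to 47.6 CPM, overlapped those at 16 h. TNC was the 1 call among 25 tested genes of matrix, integrins and migration, of which 4 had an unadjusted p under 0.05, all lower.

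CADM1 (ENSG00000182985.18, chromosome 11, 115169218 to 115504957, minus strand), an immunoglobulin-like adhesion molecule of epithelial junctions, had 43.5, 40.7, 55.0 and 40.7 CPM at 16 h and 22.1, 20.5, 19.8 and 15.8 CPM at 96 h (log2 -1.20 ± 0.19, edgeR adjusted p 0.000185). The 16 h libraries stood apart, since those at 0 h, at 17.6 to 24.4 CPM, overlapped those at 96 h. CRTAM (chromosome 11, 122838500 to 122872643, plus strand), a ligand-binding partner in the same adhesion family, went from 24.0, 22.8, 23.8 and 27.7 to 15.2, 13.2, 11.8 and 13.3 CPM (log2 -0.86 ± 0.14, edgeR adjusted p 0.000261). GRB10 (chromosome 7, 50590063 to 50793462, minus strand), an adaptor that restrains insulin receptor signalling, had 72.5 to 88.3 CPM at 16 h and 42.8 to 52.6 CPM at 96 h (log2 -0.76 ± 0.12, edgeR adjusted p 0.000385). IQGAP2 (chromosome 5, 76403285 to 76708132, plus strand), an actin-binding scaffold protein, had 67.8 to 80.4 CPM at 16 h and 36.1 to 46.0 CPM at 96 h (log2 -0.82 ± 0.15, edgeR adjusted p 0.00178). All 4 kept their calls in the 19 alternatives, and none of them overlapped between the times. CCDC3 (chromosome 10, 12896625 to 13099652, minus strand), a secreted coiled-coil protein, had 69.5 to 73.9 CPM at 16 h and 30.6 to 48.6 CPM at 96 h (log2 -0.89 ± 0.14, edgeR adjusted p 0.00036). RASSF9 (chromosome 12, 85800703 to 85836409, minus strand), a Ras-association domain protein, had 9.86 to 14.1 CPM at 16 h and 5.71 to 6.98 CPM at 96 h (log2 -0.96 ± 0.17, edgeR adjusted p 0.00117). Both were also called in all 19 alternatives, without overlap.

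ABAT (ENSG00000183044.12, chromosome 16, 8674596 to 8784575, plus strand), the mitochondrial transaminase that degrades GABA, had 38.0, 35.8, 34.4 and 30.6 CPM at 16 h and 20.5, 14.9, 14.4 and 19.7 CPM at 96 h (log2 -0.99 ± 0.14, edgeR adjusted p 4.58e-05). ACAA2 (ENSG00000167315.18, chromosome 18, 49782164 to 49813953, minus strand), the thiolase of mitochondrial fatty acid beta-oxidation, had 213, 205, 179 and 209 and 141, 126, 122 and 121 CPM (log2 -0.66 ± 0.12, edgeR adjusted p 0.000992). Neither overlapped between the times and both were called in all 19 alternatives; ACAA2 at 96 h overlapped the 0 h libraries (133 to 145 CPM). ACSS2 (chromosome 20, 34872146 to 34927962, plus strand), which makes cytosolic acetyl-CoA from acetate, had 63.4 to 72.1 CPM at 16 h and 36.1 to 49.2 CPM at 96 h (log2 -0.68 ± 0.14, edgeR adjusted p 0.0065, and 0.0751 without replicate 4 at 96 h). It was the 1 call among 11 tested genes of fatty acid synthesis. SLC2A3 (chromosome 12, 7919230 to 7936187, minus strand), the glucose transporter GLUT3, was lower at each later time, at 163 to 177 CPM at 0 h, 101 to 113 at 16 h and 53.7 to 69.1 at 96 h (log2 -0.75 ± 0.16 between 96 h and 16 h, edgeR adjusted p 0.0197). HSD17B7 (chromosome 1, 162790702 to 162812823, plus strand), an enzyme of postsqualene cholesterol synthesis, had 34.3 to 39.4 CPM at 16 h and 23.0 to 27.2 CPM at 96 h (log2 -0.57 ± 0.13, edgeR adjusted p 0.0308). It was the 1 call among 24 genes of cholesterol synthesis, of which 5 had an unadjusted p under 0.05, all lower, and 3 were called by DESeq2. HMGCS1, the synthase at the head of that pathway, had 215, 235, 210.3 and 224 CPM at 16 h and 164, 118, 162 and 148 at 96 h, a log2 fold change of -0.58 ± 0.15 that missed the threshold (edgeR adjusted p 0.105).

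Most of the remaining genes called lower had less stable calls. They included HNF4A (chromosome 20, 44355699 to 44432845, plus strand), the hepatocyte nuclear factor of gut and liver epithelium (log2 -0.46 ± 0.11, edgeR adjusted p 0.0385), and the transfer RNA ligases MARS1 (chromosome 12, 57475445 to 57517569, plus strand; log2 -0.50 ± 0.12, edgeR adjusted p 0.0366) and CARS1 (chromosome 11, 3000922 to 3057613, minus strand; log2 -0.46 ± 0.10, edgeR adjusted p 0.0328). HNF4A stood at 51.9, 53.6, 57.1 and 55.3 CPM at 16 h and 40.0, 42.9, 37.3 and 37.7 at 96 h, and was the 1 call among 17 tested enterocyte genes. MARS1 stood at 406, 369, 367 and 374 and 283, 269.7, 270.2 and 250.3 CPM. In both the groups did not overlap, yet all 8 fits that left out 1 library lost the calls of HNF4A, MARS1 and CARS1, with edgeR adjusted p up to 0.175, 0.178 and 0.166. Each also lost it in 3 other alternatives, with edgeR adjusted p up to 0.507, 0.324 and 0.491. CALD1 (chromosome 7, 134744252 to 134970729, plus strand), the actin-binding caldesmon, was the 1 call among 19 tested SRF targets and contractile actin genes, 5 of which had an unadjusted p under 0.05, all lower. It fell from 16.4, 13.0, 12.5 and 9.41 to 9.23, 5.68, 6.24 and 7.54 CPM (log2 -0.83 ± 0.20, edgeR adjusted p 0.0462), with replicate 4 at 16 h close to replicate 1 at 96 h. RIMS3 (chromosome 1, 40620680 to 40665682, minus strand), a relative of synaptic active-zone proteins, had a log2 fold change of -0.83 ± 0.18 (edgeR adjusted p 0.0182). The chemokine receptor gene CCR3 (chromosome 3, 46130890 to 46266706, plus strand) had one of -0.87 ± 0.19 (edgeR adjusted p 0.018) at 2.39 to 6.47 CPM. ANXA6 (chromosome 5, 151100706 to 151157815, minus strand), a calcium-dependent membrane-binding annexin, had a log2 fold change of -0.58 ± 0.13 (edgeR adjusted p 0.0181), with 46.9 to 60.1 CPM at 16 h and 33.9 to 37.2 CPM at 96 h. DPYSL3 (chromosome 5, 147390808 to 147510068, minus strand), a cytoskeletal protein of growing neurites, had 58.1 to 74.6 and 40.3 to 46.9 CPM (log2 -0.58 ± 0.13, edgeR adjusted p 0.0337). HECTD3 (chromosome 1, 45002540 to 45011324, minus strand), a ubiquitin ligase, had 53.6 to 63.6 and 37.8 to 43.2 CPM (log2 -0.55 ± 0.13, edgeR adjusted p 0.0309). CALD1, RIMS3, SLC2A3, HSD17B7, ANXA6, DPYSL3 and HECTD3 each lost their calls in 6 of the 8 fits that left out 1 library, and CCR3 in 4, with edgeR adjusted p up to 0.314 for CALD1. Among the other alternatives CALD1 lost its call in 5, CCR3 and HSD17B7 in 4, DPYSL3 in 3, HECTD3 in 2 and ANXA6 in 1, with edgeR adjusted p up to 0.363 for CCR3, with no low-count filter. CALD1 and SLC2A3 stayed called without replicate 4 at 16 h or replicate 1 at 96 h, RIMS3 without replicate 3 at 16 h or replicate 2 at 96 h, HSD17B7 without replicate 3 at 16 h or replicate 1 at 96 h, ANXA6 without replicate 4 at 16 h or replicate 1 at 96 h, DPYSL3 without replicate 1 or 3 at 16 h, HECTD3 without replicate 3 at 16 h or replicate 2 at 96 h, and CCR3 without replicate 1 or 3 at either time. FOSB, ADAMTSL4, TIMP3, MARS1, CCR3, ACSS2, HECTD3, IQGAP2, CCDC3, ABAT, TNC and CADM1 are among the called genes that overlap an annotated gene on the other strand, so their counts are uncertain in the way given for UPK2. The pseudogene NCAPD2P1 (chromosome 7, 34750253 to 34752053, minus strand), which resembles a condensin subunit gene and lies within the overlapping NPSR1-AS1, had 4.09, 2.76, 5.1 and 4.71 CPM at 16 h and 0.409, 0.598, 0.892 and 1.19 at 96 h (log2 -2.41 ± 0.44, edgeR adjusted p 0.00178).

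Set beside the 0 h libraries, the 16 h mean and the 96 h mean lay on opposite sides of the 0 h mean for many of these genes. Of the 34 genes called higher, 29 had a 16 h mean under their 0 h mean, and 29 had a 96 h mean above it. Those whose 16 h mean was at or above that of 0 h were FOS, EGR1, EGR3, PRSS2 and ABCG2. Of the 23 genes called lower, 14 had a 16 h mean at or above that of 0 h, among them CADM1, ACAA2, ABAT and HNF4A, and all 23 had a 96 h mean at or under it. The 16 h libraries enter both sides of this description, and no test was made.

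Genes of the pathways that auxin or lamin loss might engage were read whatever their result. CYP1A1 stood at 2.44, 1.82, 0.897 and 2.9 CPM at 0 h, 17.5, 17.9, 16.2 and 23.5 at 16 h and 12.7, 15.7, 10.5 and 17.4 at 96 h. The 2 later times overlapped, with a log2 fold change of -0.40 ± 0.20 (edgeR adjusted p 0.671). CYP1B1, the related monooxygenase, had 40.1 to 51.0, 92.8 to 104 and 86.7 to 101 CPM at the 3 times (log2 -0.04 ± 0.13, edgeR adjusted p 0.987). Of 10 tested targets of the aryl hydrocarbon receptor 0 were called and 0 had an unadjusted p under 0.05, and the median log2 fold change was -0.147. Neither DESeq2 nor limma voom called any. The lamin genes, which are untagged in these cells, were LMNA at 664 ± 55.2 and 569 ± 127 CPM, LMNB1 at 175 ± 1.81 and 183 ± 15.4, and LMNB2 at 396 ± 24.3 and 414 ± 45.6 (SD, n = 4 each). Their log2 fold changes were -0.22 ± 0.26, 0.06 ± 0.15 and 0.06 ± 0.21 (edgeR adjusted p 0.926, 0.983 and 0.989). TXNIP, a glucose-responsive inhibitor of thioredoxin, had 24.7 to 39.4 and 43.2 to 55.9 CPM without overlap, but missed the threshold (log2 0.57 ± 0.18, edgeR adjusted p 0.254). ANKRD1, a cardiac ankyrin repeat protein and target of YAP, missed it too (log2 -0.76 ± 0.19, edgeR adjusted p 0.0801), with 85.9 to 117 CPM at 0 h, 12.7 to 14.7 at 16 h and 6.71 to 10.3 at 96 h. The cell cycle inhibitor CDKN1A (log2 -0.10 ± 0.18), the angiogenic factor VEGFA (0.21 ± 0.12) and asparagine synthetase ASNS (-0.19 ± 0.22) overlapped between the times, with edgeR adjusted p of 0.962, 0.722 and 0.926.

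Of the 32 gene lists, 22 had no call by edgeR. They held 492 tested memberships, of which 70 (14.2%) had an unadjusted p under 0.05, against 7.51% of all genes. Of the memberships DESeq2 called 11 and limma voom 44, against 112 and 567 of all 21484 genes tested. The medians of these lists ran from -0.219 to 0.596. The highest was that of goblet and secretory genes, mucus-layer products, with 13 tested. Of these, 6 had an unadjusted p under 0.05, all higher: TFF1 (log2 0.90 ± 0.29), TFF3 (0.60 ± 0.21), MUC5B (1.19 ± 0.42), MUC5AC (0.64 ± 0.23), AGR2 (0.49 ± 0.18) and REG4 (1.32 ± 0.57). The edgeR adjusted p of TFF1, the smallest of the 6, was 0.264; DESeq2 called 0 of the list and limma voom 4. MUC5AC, a gel-forming mucin, had 102, 108, 138 and 118 CPM at 16 h and 129.8, 232, 168 and 195 at 96 h, and its groups overlapped. AGR2, a disulfide isomerase needed for mucin folding, had 344, 393, 419.8 and 409.8 and 606, 487, 562 and 549.9 CPM, and its groups were apart. The lowest median was that of glycolysis genes, with 17 tested and 5 at an unadjusted p under 0.05, all lower, for example PGK1 (log2 -0.36 ± 0.11, edgeR adjusted p 0.203) and TPI1 (-0.36 ± 0.10, edgeR adjusted p 0.198). Hypoxia targets had 6 of 22 at an unadjusted p under 0.05, all lower, with PFKFB4 (log2 -0.71 ± 0.17, edgeR adjusted p 0.0601) and NDRG1 (-0.65 ± 0.16, edgeR adjusted p 0.0769) the nearest to a call; DESeq2 called 2 and limma voom 5. Cytosolic ribosomal protein genes had 6 of 42, all higher, with a median of 0.177. Mitotic genes had 3 of 28, S phase genes 1 of 28, p53 targets 3 of 20, YAP and TEAD targets 1 of 20 and nuclear envelope genes 0 of 19 at that level.

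**Figure D4:**
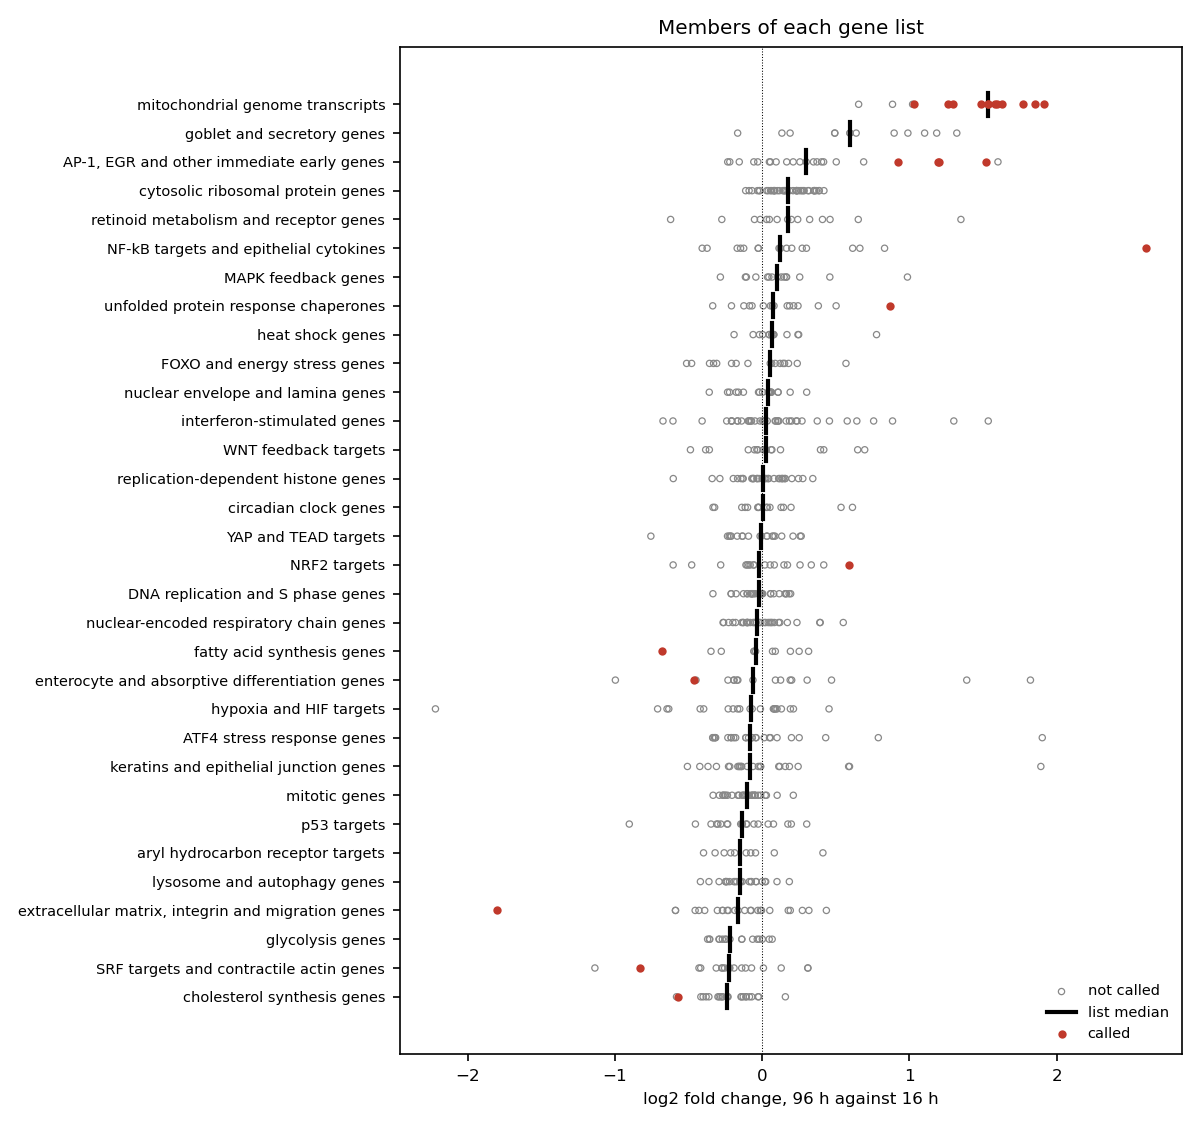
Log2 fold change between 96 h and 16 h of the tested members of each of the 32 gene lists (horizontal axis; 1 row per list, ordered by median). Open grey circles were not called, filled red circles were called, and the black bar is the list's median; the mitochondrial list, with 12 called, has the highest median (1.53), and 22 lists have no filled circle.

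The tagged lines gave the same contrast in other libraries, with none shared. The Lamin B2 contrast had 7 libraries, and those of Lamin A/C and Lamin B1 had 8 each. In the Lamin B2 line, replicate 3 at 16 h held only 479446 counts. Of these 8.48% were mitochondrial, against 0.537% to 1.95% in the other 16 h libraries of that line. Lamin A/C, Lamin B1 and Lamin B2 lines had 1133, 4379 and 537 genes called between 96 h and 16 h (5.27%, 20.4% and 2.5% of those tested). Of all genes tested, 2.05% were called higher and 3.22% lower in the first, 9.53% and 10.9% in the second, and 1.05% and 1.45% in the last. Of the 57 parental genes, 28 (49.1%) were called in the same direction in the Lamin A/C line, 50 (87.7%) in the Lamin B1 line and 26 (45.6%) in the Lamin B2 line, and 0 in the opposite direction in any. These are 2.47%, 1.14% and 4.84% of each line's own calls. In all 3 lines 20 of the 57 were called, among them S100P, PRSS2, NLRC5, ABCC3, TNC, CADM1, ABAT, ACAA2, CRTAM, CCDC3, GRB10, IQGAP2, SLC2A3 and HNF4A. In none of them were SAP30L-AS1, TIMP3, HSD17B7 and ACSS2 called. The mitochondrial genes called in the parental line numbered 14, of which 14 were called in the Lamin B1 line, 5 in the Lamin B2 line and 1 in the Lamin A/C line. Their difference from the parental change was called for 0 genes in each line, with a smallest edgeR adjusted p of 0.284. In the fit without replicate 3 at 16 h of the Lamin B2 line, 35 parental calls were also called in that line, against 26 in the main fit. The mitochondrial genes among the 35 were not counted, so the part that this library had in the mitochondrial numbers was not tested.

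**Figure D5:**
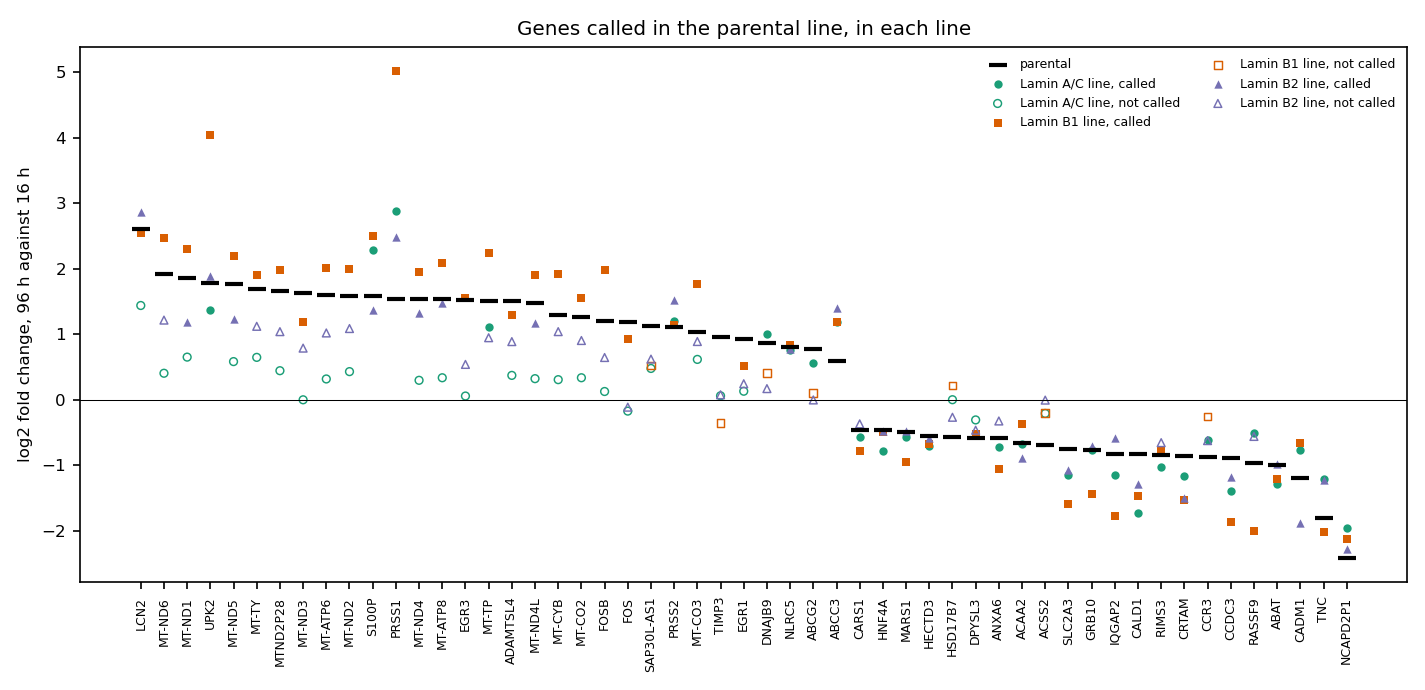
Log2 fold change between 96 h and 16 h of auxin (vertical axis) for genes with a symbol that were called in the parental line and are reported here (horizontal axis), in the parental line (black bars) and in the Lamin A/C (green circles), Lamin B1 (orange squares) and Lamin B2 (violet triangles) lines. Filled markers were called in that line and open ones were not; most markers lie on the same side of 0 as the black bar, and FOS, MT-ND3, TIMP3, HSD17B7, ACSS2 and ABCG2 have markers at or across 0.

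Whether a line's change differed from that of the parental line was tested directly. The difference was called for 26 genes in the Lamin A/C line (0.121% of 21484; 0.0791% higher and 0.0419% lower than in the parental line), 246 in the Lamin B1 line (1.15%; 0.461% and 0.684%) and 7 in the Lamin B2 line (0.0326%, all lower). Among the 57 parental genes it was called for 1, 8 and 1. These genes were chosen by their parental change, which is also 1 side of every difference, and all 3 lines use the same 8 parental libraries. These counts are therefore not independent of that choice or of each other. FOS was the gene in both the Lamin A/C and the Lamin B2 line. Its change was -0.17 in the Lamin A/C line, 0.94 in the Lamin B1 line and -0.11 in the Lamin B2 line, against 1.19 in the parental line. The differences from the parental change were -1.36 ± 0.23 (edgeR adjusted p 0.0013) in Lamin A/C and -1.30 ± 0.25 (edgeR adjusted p 0.0204) in Lamin B2 cells. The first was called in all 26 alternatives, and the second in 16 of 25: it was lost with scaling by library size only and without any one of replicates 2 to 4 of the parental line at 16 h, replicate 2 of the parental line at 96 h, replicates 1 and 4 of the Lamin B2 line at 16 h and its replicates 2 and 3 at 96 h (edgeR adjusted p up to 0.201). EGR1, EGR3 and FOSB were not called in the Lamin A/C or Lamin B2 line, with changes of 0.13, 0.06 and 0.13 in the former, but their differences from the parental line missed the threshold (edgeR adjusted p 0.286, 0.102 and 0.526).

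In the Lamin B1 line the 8 were S100P, PRSS1, TIMP3, HSD17B7, GRB10, IQGAP2, CCDC3 and RASSF9. CCDC3 fell further there, by a difference of -0.97 ± 0.21 (edgeR adjusted p 0.0119), called in all 26 alternatives. RASSF9 (-1.03 ± 0.25, edgeR adjusted p 0.0252), IQGAP2 (-0.96 ± 0.24, edgeR adjusted p 0.0272) and GRB10 (-0.67 ± 0.18, edgeR adjusted p 0.0411) also fell further. S100P rose further, by 0.92 ± 0.23 (edgeR adjusted p 0.0322), as did PRSS1 (3.47 ± 0.82, edgeR adjusted p 0.0207). TIMP3 and HSD17B7 had changes of -0.35 and 0.22 in that line, of the other sign than in the parental line, with differences of -1.31 ± 0.30 and 0.79 ± 0.18 (edgeR adjusted p 0.0207 and 0.0207). Of these, TIMP3 lost the call without replicate 2 at 96 h of either line (edgeR adjusted p up to 0.0657), RASSF9 kept it in 18 of 26 alternatives, S100P in 16 and HSD17B7 in 21. For HSD17B7 the libraries whose omission ended it were replicate 2 of the parental line at either time, and replicate 1 at 16 h and 2 at 96 h of the Lamin B1 line. For RASSF9 they were parental replicates 3 and 4 at 16 h and 2 at 96 h, and Lamin B1 replicates 3 at 16 h and 2 and 4 at 96 h. For S100P they were parental replicates 2 and 3 at 16 h and 1, 3 and 4 at 96 h, and Lamin B1 replicates 1 and 4 at 16 h and 1 and 2 at 96 h. The highest edgeR adjusted p were 0.117, 0.108 and 0.0951. Alternatives were not run for the differences of PRSS1, GRB10 and IQGAP2.

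Both CCN1 and CCN2, matricellular proteins and targets of YAP, had parental changes that were not called and tagged-line changes that were. CCN1 stood at 85.6, 92.1, 101 and 91.5 CPM at 16 h and 93.8, 104, 109.5 and 98.6 CPM at 96 h in the parental line (log2 0.13 ± 0.16, edgeR adjusted p 0.933). At 0 h in the parental line it had been higher than at both later times, at 145 to 190 CPM. Its changes were -1.96, -1.38 and -1.31 in the Lamin A/C, Lamin B1 and Lamin B2 lines, and the differences of -2.10 ± 0.23, -1.52 ± 0.23 and -1.44 ± 0.24 had edgeR adjusted p of 1.05e-07, 0.00021 and 0.00333. Each was called in every alternative run. CCN2 stood at 20.0 to 23.7 and 23.7 to 29.9 CPM in the parental line (log2 0.27 ± 0.16, edgeR adjusted p 0.771) and changed by -1.54, -0.90 and -1.23 in the same lines. In the parental line at 0 h CCN2 had been at 29.0 to 35.0 CPM, above all 16 h libraries. Its differences of -1.80 ± 0.23, -1.16 ± 0.23 and -1.50 ± 0.25 had edgeR adjusted p of 3.48e-06, 0.00587 and 0.00333, and the last was lost in 2 of 25 alternatives, among them that without replicate 1 of the Lamin B2 line at 16 h (edgeR adjusted p up to 0.0658).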

How the data were processed

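Libraries were made from total RNA with ribosomal RNA depletion and sequenced in pairs, per the labels' protocols. Raw counts for each gene were deposited by the authors as 1 table, made with featureCounts 1.6.4 in the environment of nf-core/rnaseq 1.4.2 per the file headers. The submitters' processing notes name STAR 2.7.10a and GRCh38. Strand setting, handling of multi-mapping reads and annotation release are not given in the sources used here, so overlapping and near-identical genes are uncertain. Of 46 count columns, 0 were unmatched, and 1 gene broken over 3 lines was left out. Gene types, overlaps and GC content came from GENCODE 29. Promoters came from RefSeq (GRCh38.p14), with windows for 17 of 25 genes looked for.

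Counts of all 46 libraries were fitted with 1 coefficient for each of 12 groups by edgeR 4.0.16 in R 4.3.3 (glmQLFit, glmQLFTest, TMM scaling, filterByExpr by group). P-values are two-sided and Benjamini-Hochberg adjusted over 21484 genes, and a gene was called under 0.05. There were 7 comparisons across genes. Log2 fold changes are given ± standard error. CPM values are TMM-scaled, except the limits for a gene with no count and the marker levels, which are scaled by library total. Members and gene lists were chosen with earlier results of these data known. Genes were named by rule: up to 10 with the largest rise and 10 with the largest fall among called protein-coding genes with at least 1 CPM and no overlap, up to 3 noncoding genes each way, up to 2 called per list, a fixed list, and up to 3 per line difference; other called genes were named after their values were seen, and a few genes under the rule are not reported here. Alternatives used RLE or library-size scaling, no low-count filter, DESeq2 1.42.0, limma 3.58.1 (voom, always with sample quality weights, so that method and weights change together), fewer libraries, the replicate block, removal of GC and length trends, and omission of mitochondrial transcripts (added after seeing the data).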

Additional observations from a re-analysis of the deposited data

Results flagged for a closer look

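The results that stood out were of 2 kinds, single libraries far from the others of their group and changes that differed between lines. For 47 named genes the 4 libraries of each time were examined, 94 groups in all, and 5 held a library far from the other 3 by Dixon's 95% value; chance alone flags about 1 in 20 groups. UPK2 reached 6.96 CPM in replicate 3 at 96 h, against 2.48 to 2.59 CPM in the others, and TNC reached 47.7 CPM in replicate 3 at 16 h, against 35.8 to 37.2. FOS had its lowest 16 h value, 33.2 CPM, in replicate 3, against 35.9 to 36.3. Replicate 2 at 96 h held the highest level of both LMNA (758 CPM, against 485 to 519) and LMNB1 (206 CPM, against 172 to 177).

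The change between 16 h and 96 h differed from that of the parental line, by the edgeR test of the difference, for 10 named genes. In the Lamin A/C line these were FOS (-1.36), CCN1 (-2.10) and CCN2 (-1.80), and in the Lamin B2 line FOS (-1.30), CCN1 (-1.44) and CCN2 (-1.50). In the Lamin B1 line they were CCN1 (-1.52), CCN2 (-1.16), S100P (0.92), RASSF9 (-1.03), CCDC3 (-0.97), HSD17B7 (0.79), TIMP3 (-1.31), ANKRD1 (-1.12, edgeR adjusted p 0.0368, lost in 12 of 26 alternatives) and CA9 (4.65, edgeR adjusted p 0.0315, lost in 9 of 25). CA9, a hypoxia-induced carbonic anhydrase, was at 0.819, 1.23, 2.16 and 1.62 CPM at 16 h and 0.163, 0.499, 0.535 and 0.0919 CPM at 96 h in the parental line, near the floor of 3 counts.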

How the results depend on the processing

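Of the 57 calls, 55 were kept with RLE scaling, 54 with library size only, 54 with DESeq2 and 57 with limma voom with sample quality weights. Fewer were kept with no low-count filter (46), with the replicate block (41) and when 1 parental library was left out (29 to 46). Without mitochondrial transcripts, 33 of the 43 still tested were kept. No alternative moved the median of all genes by over 0.0285. Depth limits genes under about 0.535 CPM, and 4 libraries a group limit small changes. The 57 calls (34 higher, 23 lower) became 95 (70 higher) with no low-count filter, 112 (66 and 46) with DESeq2, 567 (275 and 292) with limma voom with sample quality weights, 178 (102 and 76) in the 8 parental libraries alone, 184 (102 and 82) in the 12 parental libraries alone, 171 (99 and 72) without libraries under 5000000 counts, 202 (98 and 104) with GC and length trends removed, and 33 (16 higher) without mitochondrial transcripts. The share called higher was 59.6%, but 73.7% with no low-count filter and 48.5% with limma voom with sample quality weights, with the trends removed and without mitochondrial transcripts. Leaving out 1 library gave 30 to 52 calls (16 to 33 higher, 11 to 19 lower). The causes were not tested. With the trends removed MT-TP took the other sign (-0.0744).

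Line differences numbered 26, 246 and 7 for Lamin A/C, Lamin B1 and Lamin B2. They became 41, 497 and 14 with DESeq2, 256, 1461 and 355 with limma voom with sample quality weights, 151, 1090 and 3 in the 2 lines alone, and 70, 1946 and 30 without the shallow libraries. Lamin A/C and Lamin B1 gave 117 and 1015 with the trends removed. Lamin A/C and Lamin B2 gave 55 and 31 with no filter, and Lamin B2 gave 3 with library size only and 4 without mitochondrial transcripts. Leaving out 1 library gave 12 to 26, 51 to 404 and 2 to 7. Parental calls also called in each line (28, 50 and 26 of 57) became 60, 80 and 49 of 112 with DESeq2. With limma voom with sample quality weights they were 316, 346 and 273 of 567. Without the shallow libraries they were 93, 117 and 90 of 171, and with the trends removed 134, 151 and 109 of 202. They were 180 and 88 for Lamin A/C and Lamin B1 in the 2 lines alone and 46 of 95 for Lamin B2 with no filter. Without mitochondrial transcripts they were 29 and 15 of 33 for Lamin B1 and Lamin B2. Leaving out 1 library gave 13 to 24, 25 to 50 and 11 to 35.

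Samples with the same replicate number had correlated deviations of r = 0.37, -0.32, 0.16 and -0.08 between the 2 times, over 8680 genes. Samples with different numbers had r from -0.375 to 0.469. So few values cannot decide whether the numbers pair the samples, and the main fit treated the samples as unpaired. With the replicate block 42 genes were called, 41 of them among the 57 (15 lower), 16 were shared with the Lamin A/C line, and 3 Lamin B2 differences were called.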

Other observations

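Besides NLRC5, members of the MHC class I antigen presentation pathway within the interferon-stimulated list had positive changes between 16 h and 96 h; this group was chosen after its values were seen, and none of its members was called. HLA-B, a class I heavy chain, stood at 1.0, 2.22, 2.47 and 3.09 CPM at 16 h and 5.88, 8.28, 5.89 and 4.69 CPM at 96 h (log2 1.54 ± 0.37, edgeR adjusted p 0.05, not under the threshold). PSMB9 and PSMB8, subunits of the immunoproteasome, had log2 fold changes of 0.89 ± 0.22 and 0.64 ± 0.17 (edgeR adjusted p 0.0567 and 0.112). B2M, the light chain of class I molecules, had 0.46 ± 0.16 (edgeR adjusted p 0.372), and HLA-C and TAP1 had 0.11 and 0.27. In HLA-B, PSMB8, PSMB9 and B2M the groups did not overlap, as in 1525 (7.1%) of all genes tested. In the whole list 9 of 40 tested members had an unadjusted p under 0.05, 7 higher and 2 lower, with 0 called by edgeR, 4 by DESeq2 and 5 by limma voom. Over all 21484 genes tested, DESeq2 called 112 and limma voom 567.

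Of the genes without a symbol, ENSG00000283413.1 (chromosome 5, 159484130 to 159511687, minus strand, a noncoding RNA) had 0 counts in all 4 libraries at 16 h and 5, 6, 4 and 7 counts at 96 h, and it had been at 0.242 to 0.897 CPM at 0 h.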
